A study of Mus musculus with 5 samples.

Results

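Havcr1, Lcn2, Krt20, Vcam1, Sox9 and Clu, 6 genes whose transcripts are widely used as marks of tubular injury, were followed in single-cell RNA sequencing of mouse kidney. The 6 were chosen by symbol and were all found among the 32285 genes of the 5 count matrices, and their levels were measured in each nephron segment and in the other kidney cells. All kidneys were from wild-type C57BL/6 males, 8 to 10 weeks old. AKI (acute kidney injury) was induced with intraperitoneal aristolochic acid I (AAI), a plant nephrotoxin taken up by the proximal tubule, at 3 mg/kg every 3 days. The 2 AKI libraries were taken 2 weeks after the first injection and the 2 CKD (chronic kidney disease) libraries 4 weeks after it, the last 2 weeks without AAI, and the single control library came from vehicle-treated mice. No transgene or deletion was carried by any group, and the sample sizes stated for the study equal these library counts without saying how many mice made up a library, so p-values measure the spread between libraries, part of which may be technical.

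Injured tubular epithelium loses transport functions and takes on a damaged or repairing state that is read from a small set of transcripts. Havcr1 (also called KIM-1) is a phosphatidylserine receptor with which proximal tubule cells engulf dying neighbours, and Krt20 is an intermediate filament keratin of urothelium and intestine that appears in damaged tubules. Lcn2 (NGAL) is a secreted, siderophore-binding lipocalin also stored in neutrophil granules, and Clu (clusterin) is a secreted chaperone. Sox9 is a transcription factor of the developing nephron that is re-expressed in repairing tubule cells, and Vcam1, the ligand of the integrin VLA-4 on leukocytes, is found on activated endothelium and on proximal tubule cells that fail to repair.

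After filtering and doublet removal 53718 of 72896 barcodes were kept as cells, 8876 of them in classes with tubule markers. Between 573 and 3224 tubule-like cells were found per library, with median depths of 3136 to 12580 UMIs (unique molecular identifiers, each counting 1 captured transcript). The libraries were not alike. In the control library 38.7% of barcodes were over 30% mitochondrial UMIs, against 11.1% to 12.7% in the other 4, and its tubule-like cells had a median of 16.7% against 8.40% to 12.99%. Of the control cells 99, of which 18 were tubule-like, shared a barcode with a CKD 2 cell of over 20 times the UMIs. CKD 1 stood apart by its shallow tubule-like cells and by 21.1% of cells that no marker list could name, against 6.87% to 10.5% elsewhere. Proximal tubule (PT)-like cells made up 24.7% of tubule-like cells in the control, 29.8% and 35.8% in AKI and 35.6% and 46.4% in CKD. A level summed over tubule-like cells therefore joins the mix of segments and the RNA of each, and from such a sum fewer cells of a type and less RNA per cell cannot be told apart. The classes are called PT-like, thin limb-like, thick ascending limb (TAL)-like, distal convoluted and connecting tubule (DCT/CNT)-like, principal (PC)-like and intercalated (IC)-like. A further injured tubule-like class held 30, 65, 38, 67 and 19 cells in control, AKI 1, AKI 2, CKD 1 and CKD 2. It was led by Slpi, Crct1, S100a6, Phlda3 and Areg. Its 10 naming markers were detected, but none was among its 10 leading genes. Of these markers Cryab stood at 13.2 to 58.5 there, against 7.54 to 13.9 in all tubule-like cells. Spp1 stood at 9.09 to 65.3, against 135 to 226 in all tubule-like cells of the AAI libraries, so the name of the class is tentative. Its segment of origin is not given by its transcripts, since the 11 PT markers summed there to 0.701 to 6.12 UMIs per 10000, against 62.2 to 73.99 in PT-like and 0.457 to 4.64 in PC-like cells. The 6 genes took no part in building or naming any class.

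Short stretches before the annotated start are shown for 2 of the genes, since Lcn2 carries the main distal result below and Krt20 was nearly absent from control tubule. They are the 250 bases before the start in RefSeq, build GRCm38.p6, on the minus strand at chr2:32387740-32387989 for Lcn2 and chr11:99438154-99438403 for Krt20, written 5′ to 3′. Capitals mark the 1 match of TTGCNNAA, a C/EBP motif, in Lcn2 and the 1 match of TATAAA in Krt20.

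Lcn2: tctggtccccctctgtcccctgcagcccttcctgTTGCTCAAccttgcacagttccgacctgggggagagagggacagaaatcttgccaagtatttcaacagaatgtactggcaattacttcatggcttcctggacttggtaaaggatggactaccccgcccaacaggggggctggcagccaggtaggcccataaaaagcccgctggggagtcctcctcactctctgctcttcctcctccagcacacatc

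Krt20: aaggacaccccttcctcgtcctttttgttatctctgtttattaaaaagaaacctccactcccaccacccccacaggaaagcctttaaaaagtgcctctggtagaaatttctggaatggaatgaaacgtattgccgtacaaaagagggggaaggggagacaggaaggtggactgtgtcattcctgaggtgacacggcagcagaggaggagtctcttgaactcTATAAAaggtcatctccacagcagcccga

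The Lcn2 match started 216 bases before the start and the Krt20 match 29 bases before it. Both strands were searched, and of 32851 annotated promoters searched over the same length, TTGCNNAA was held by 9.56% and TATAAA by 12.4%. The strict NF-kB motif, held by 1.41% of promoters, and TGANTCA, an AP-1 motif held by 6.75%, had no match in these windows or in those before the 3 annotated Havcr1 starts. A relaxed NF-kB motif, held by 45.8% of promoters, matched once in the Lcn2 window, 102 bases before the start. These are matches of letters, and no binding was measured.

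**Figure D1:**
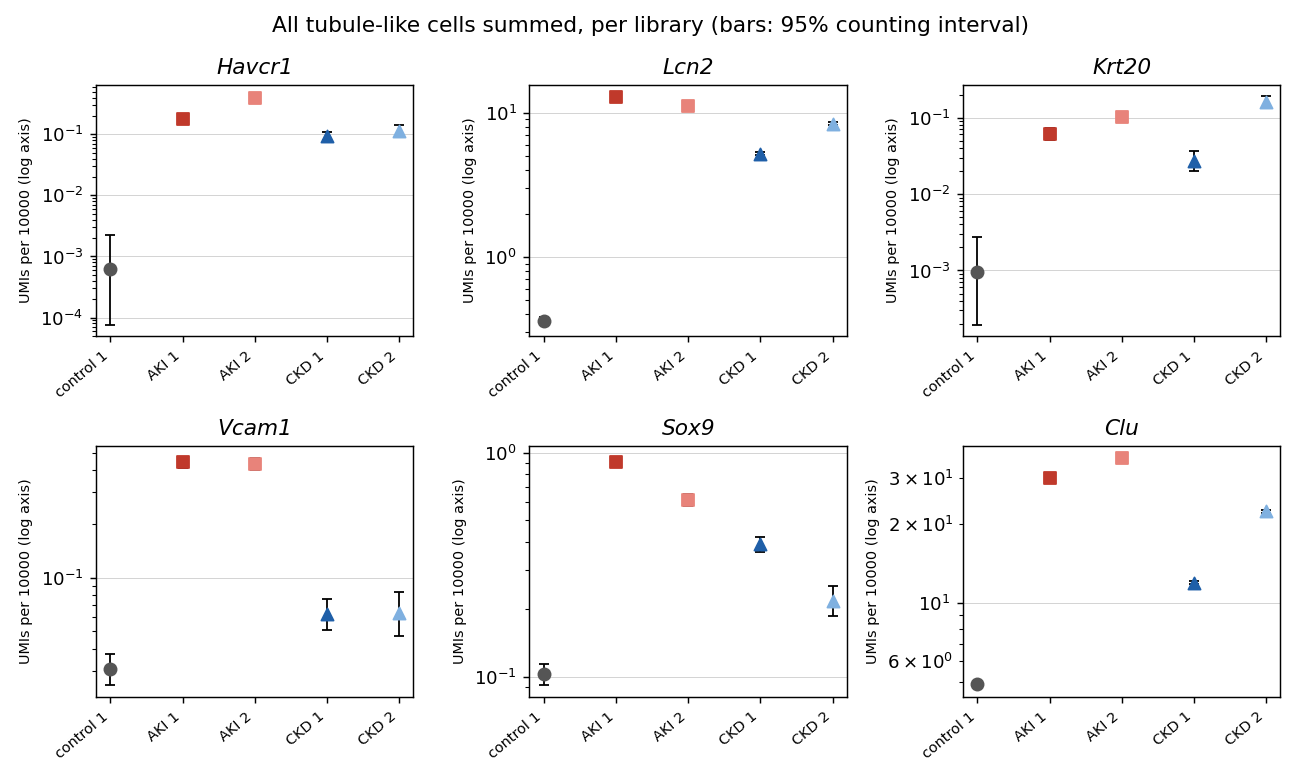
Level of the 6 genes in the summed tubule-like cells of each library, in UMIs per 10000 UMIs on a log axis, 1 point per library for control, AKI and CKD. Every AKI and CKD point lies above the control point of its gene, and for Vcam1 both CKD points (0.0625 and 0.0631) lie well below both AKI points (0.441 and 0.431).

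All 6 genes rose in AKI tubule. Levels are UMIs of a gene per 10000 UMIs of the same cells, in the order control, AKI 1, AKI 2, CKD 1 and CKD 2. Havcr1 stood at 0.000634, 0.18, 0.387, 0.0937 and 0.114, from 2 control UMIs and 90 to 638 UMIs in the others. Both AKI and both CKD libraries were above the control, AKI 2 was the highest, and the AKI libraries lay above the CKD libraries. Against the 2 control UMIs the ratio was 285 (95% counting interval 78.2 to 2359) in AKI 1 and 610 (168 to 5051) in AKI 2, and 148 (40.2 to 1231) in CKD 1 and 179 (48.1 to 1501) in CKD 2. These intervals cover counting error only.

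Krt20 stood at 0.000951, 0.0615, 0.103, 0.027 and 0.159, from 3 control UMIs. CKD 2 held the highest and CKD 1 the lowest level of the injured libraries, so the summed levels of AKI and CKD overlapped. The CKD 2 level rests on few cells, since 113 of its 126 UMIs lay in 19 injured tubule-like cells. The ratio to control was 64.7 (21.6 to 318) in AKI 1, 108 (36.5 to 531) in AKI 2, 28.4 (9.12 to 143) in CKD 1 and 167 (55.9 to 821) in CKD 2.

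The secreted proteins were already present in control tubule. Lcn2 stood at 0.36, 12.8, 11.2, 5.2 and 8.39, and Clu at 4.93, 30, 35.9, 12 and 22.4. For both genes the AKI libraries were highest, the CKD libraries intermediate and the control lowest, with no overlap between groups. Sox9 had the same order at 0.102, 0.913, 0.614, 0.39 and 0.218. Vcam1, at 0.0308, 0.441, 0.431, 0.0625 and 0.0631, was high in both AKI libraries, and the CKD libraries stood close together, below AKI and above the control.

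The summed counts were tested with edgeR's quasi-likelihood test over all 15185 genes with enough counts, in 1 fit of the 5 libraries with Benjamini-Hochberg adjustment, in which the single control is assumed to vary like the other groups. In AKI against control 6 of 6 markers were higher, where 9.81% of all genes tested were higher and 16.6% were called in either direction. The log2 fold change was 5.02 (SE 0.34, adjusted p = 0.0013) for Lcn2, 3.78 (SE 0.18, adjusted p = 0.00078) for Vcam1, 2.85 (SE 0.43, adjusted p = 0.0086) for Sox9 and 2.70 (SE 0.38, adjusted p = 0.0073) for Clu. Adjusted p was 0.0027 for Havcr1 and 0.029 for Krt20, whose fitted folds rest on 2 and 3 control UMIs and are not given. In CKD against control all 6 were again higher, against 9.75% of genes higher and 16.2% called. Vcam1 is counted although its summed CKD levels lay below those of T lymphocyte-like cells (0.186 in CKD 1 and 0.173 in CKD 2), which are used below as background. The log2 fold change was 4.24 (SE 0.32, adjusted p = 0.0025) for Lcn2, 1.80 (SE 0.36, adjusted p = 0.022) for Clu, 1.63 (SE 0.41, adjusted p = 0.041) for Sox9 and 1.05 (SE 0.18, adjusted p = 0.013) for Vcam1, and adjusted p was 0.0066 for Havcr1 and 0.028 for Krt20. With cells held to at most 15% mitochondrial UMIs and the classes rebuilt, which gave 1687 control tubule-like cells in place of 3224, 4 of 6 markers passed in AKI and 0 of 6 in CKD, where the log2 fold change was 3.46 for Lcn2 (adjusted p = 0.053), 2.61 for Clu (adjusted p = 0.083), 0.38 for Sox9 (adjusted p = 0.28) and −0.38 for Vcam1 (adjusted p = 0.72). By the same edgeR test 4 of the 6 had an unadjusted p under 0.05 in CKD under that limit, and DESeq2 was not run there. Without CKD 1, Sox9 also lost its CKD call (1.04, adjusted p = 0.082), and 2 of 6 passed in CKD when the unnamed subclusters of the epithelial clusters, many of them led by leukocyte or endothelial genes, were counted as tubule.

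CKD and AKI differed clearly for Vcam1, which fell by 2.73 on the log2 scale (SE 0.13, adjusted p = 0.0036), where 0.0395% of genes tested were lower and 0.0922% were called. The other log2 differences were −1.41 for Havcr1 (SE 0.36, adjusted p = 0.16), −1.22 for Sox9 (SE 0.31, adjusted p = 0.16), −0.90 for Clu (SE 0.27, adjusted p = 0.21), −0.78 for Lcn2 (SE 0.21, adjusted p = 0.18) and 0.11 for Krt20 (SE 0.68, adjusted p = 0.96). These 5 did not pass the threshold, which does not show that their levels were alike. DESeq2 called 5 of 6 markers lower, all but Krt20, and the Vcam1 call was lost at 15% mitochondrial UMIs (−2.23, adjusted p = 0.39), with no correction by library in the clustering (−2.40, adjusted p = 0.16) and with those unnamed subclusters counted (−2.16, adjusted p = 0.19).

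**Figure D2:**
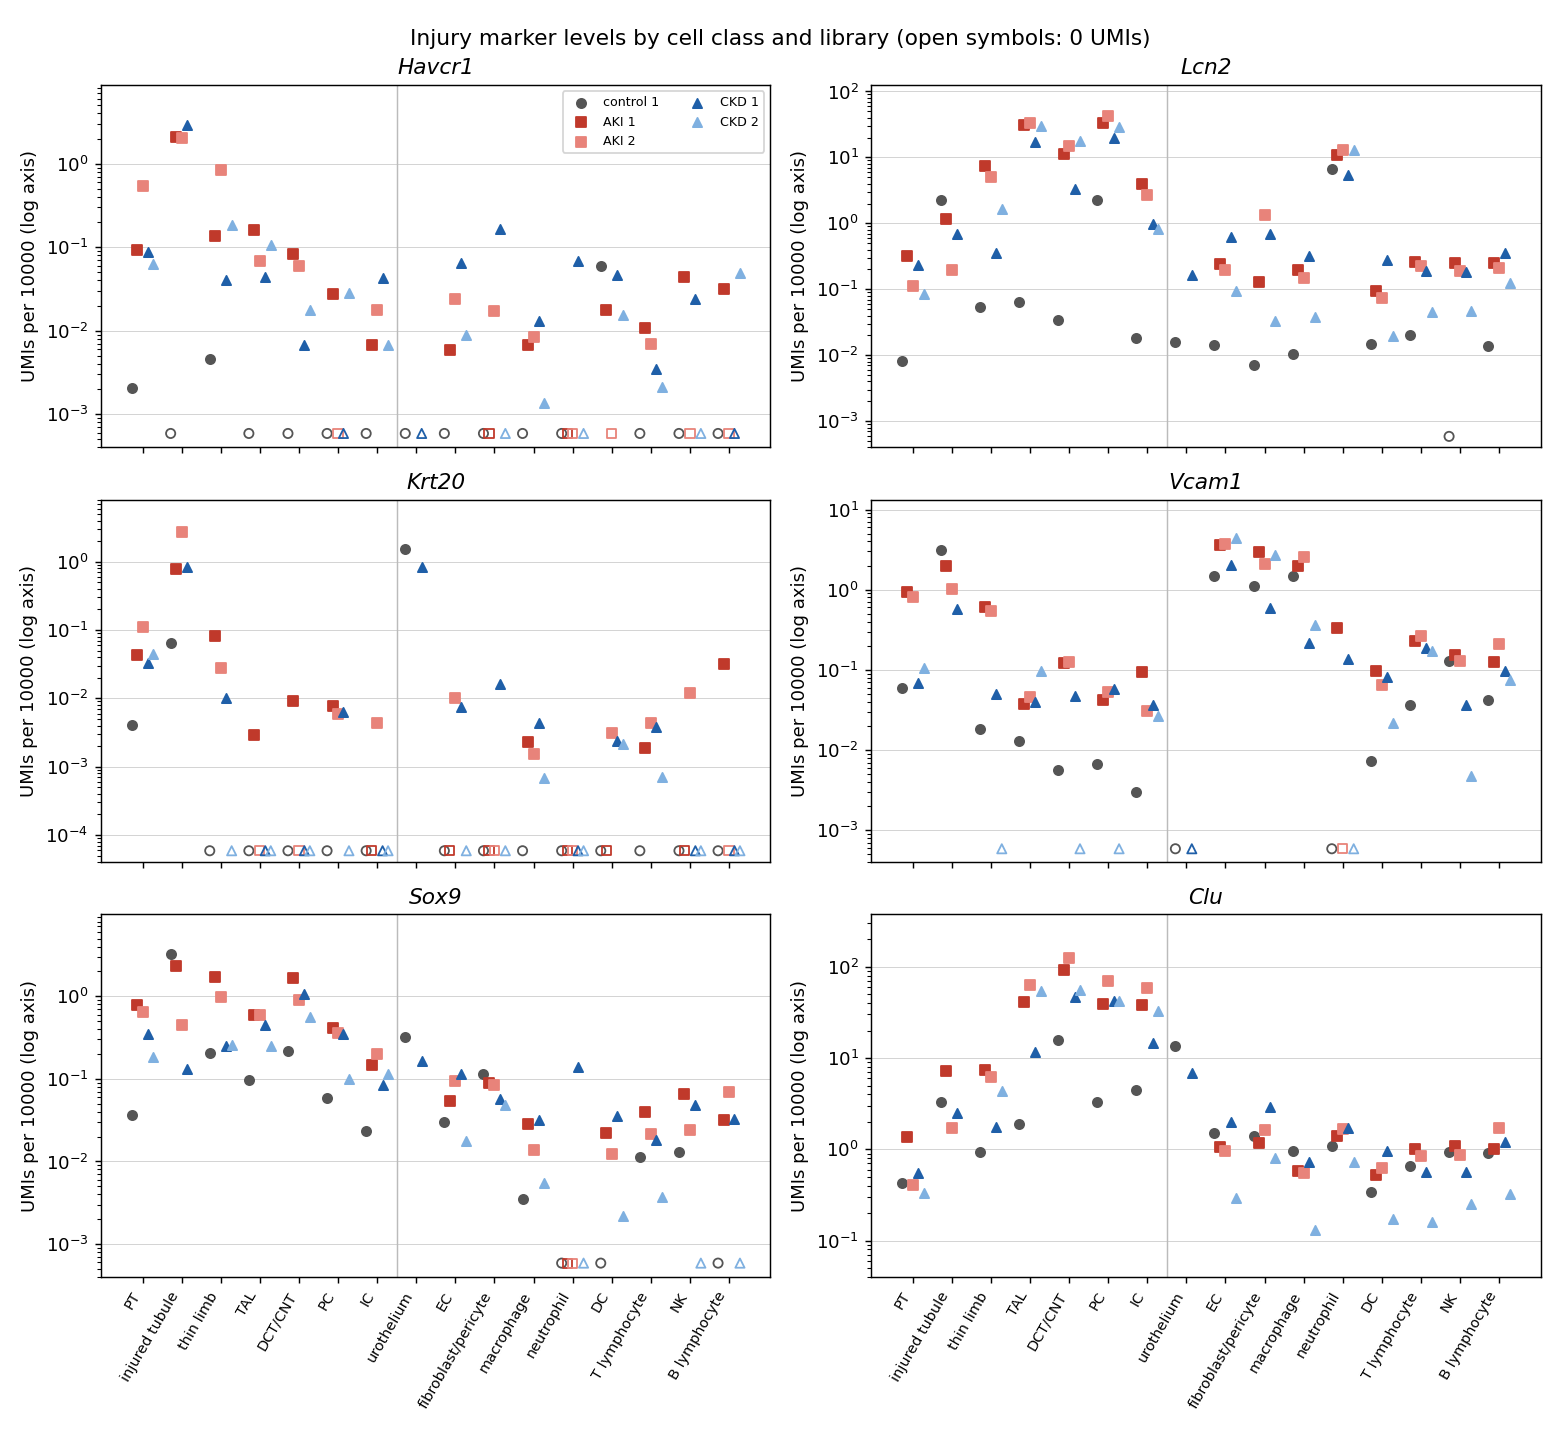
Level of each of the 6 genes by cell class, in UMIs per 10000 UMIs on a log axis, 1 point per library and class with at least 20 cells, open points marking 0 UMIs. In the AAI libraries Lcn2 and Clu reach their highest levels in distal classes. Havcr1 is highest there in injured tubule-like cells, of which CKD 2 has too few to be shown. In the control Clu is highest in DCT/CNT-like, Lcn2 in neutrophil-like (6.71) and Havcr1 in dendritic-like cells (0.0592). Krt20 is highest in injured tubule-like and urothelium-like cells. Vcam1 is highest in endothelial, fibroblast and, outside CKD, macrophage-like cells, with the 30 injured tubule-like cells of the control highest at 3.13.

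The segments that held each gene differed. Havcr1 was found mainly in injured tubule-like, PT-like and thin limb-like cells. Injured tubule-like cells held it at 0, 2.07, 2.04, 2.93 and 1.04, PT-like cells at 0.00205, 0.0923, 0.54, 0.0871 and 0.0622 and thin limb-like cells at 0.00454, 0.137, 0.85, 0.0406 and 0.184. In injured tubule-like cells all 4 AAI libraries lay above 1 and the control had 0 UMIs, which makes the level at least 10.8, 10.7, 15.3 and 5.42 times higher in AKI 1, AKI 2, CKD 1 and CKD 2 (floor of 3 UMIs per library). The level depended on how the class was built. With doublets kept, the rebuilt injured tubule-like class held 82, 48, 33, 94 and 12 cells. Its mean Havcr1 level over libraries with at least 20 cells was then 0.384 in place of 1.76, still the highest of any class. In PT-like and thin limb-like cells all 4 AAI libraries were above the control, which had 1 UMI in each class, and AKI 2 was the highest. AKI 2 held 42.5% of its Havcr1 UMIs in PT-like and 28.1% in thin limb-like cells and 9.45% in injured tubule-like cells, whereas AKI 1 held 44.6% in the last. Within the PT-like class AKI 2 was the highest library in all 4 subclusters, from 0.273 in one led by Gm26917 to 1.35 in one led by Kap and Ces2e, and 209 of its 324 PT-like Havcr1 UMIs lay in a subcluster led by Gpx3. Within the thin limb-like class 203 of 214 lay in a subcluster led by Fst, Lypd2, Aqp1 and Agt (0, 0.353, 3.31, 0.0592 and 0.0857). TAL-like cells carried it at 0, 0.159, 0.0692, 0.0437 and 0.106, above macrophage-like cells (0, 0.00681, 0.00832, 0.0131 and 0.00138). T lymphocyte-like cells stood at 0, 0.0107, 0.00685, 0.00344 and 0.0021, and activated T cells are known to express this gene under the name TIM-1. In CKD 1, 26 Havcr1 UMIs lay in endothelial-like cells and 20 in fibroblast-like cells, and of the 10 Havcr1 UMIs of the control 8 lay in dendritic-like cells.

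Krt20 was held by urothelium-like cells in every library (1.53, 1.33, 2.01, 0.834 and 1.83), which in the control held 86.5% of its UMIs. These urothelium-like cells numbered 39, 13, 9, 27 and 12, so the AKI 1, AKI 2 and CKD 2 values rest on fewer than 20 cells. Injured tubule-like cells stood at 0.064, 0.783, 2.7, 0.831 and 2.73, from 1 control UMI, and held 37.7%, 28.1%, 21.3% and 59.5% of the Krt20 UMIs of AKI 1, AKI 2, CKD 1 and CKD 2. Outside these, PT-like cells stood at 0.0041, 0.0429, 0.11, 0.0329 and 0.0449, and the distal classes together had at most 5 UMIs in any library. Thin limb-like cells had 0 Krt20 UMIs in the control, 24 in AKI 1, 7 in AKI 2 and 2 in CKD 1. Their AKI 1 level, 0.0825, was above the PT-like 0.0429. The urothelium-like level of the control lay within the range of the AAI libraries. In CKD 1, the AAI library with more than 20 such cells, it was lower, at 0.834 against 1.53. The tubule rise lay mainly in injured tubule-like and PT-like cells, and in AKI 1 also in thin limb-like cells.

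Lcn2 was mostly a distal transcript. TAL-like cells went from 0.0632 to 30.7 and 33.2 in AKI and 17 and 29.4 in CKD, and DCT/CNT-like cells from 0.0337 to 11.1, 15, 3.38 and 17.5. PC-like cells, which carried 73.5% of the control's Lcn2 UMIs, went from 2.27 to 33.6, 41.9, 19.4 and 28.8. In all 3 classes every injured library was above the control, and the control order, with PC-like cells far above TAL-like and DCT/CNT-like cells, gave way to TAL-like and PC-like cells at overlapping levels. Thin limb-like cells stood at 0.0545, 7.39, 5.06, 0.35 and 1.67, high in AKI with both CKD libraries below, and IC-like cells followed (0.0182, 3.92, 2.66, 0.976 and 0.829). PT-like cells stood at 0.0082, 0.318, 0.113, 0.23 and 0.0863, close to the level in T lymphocyte-like cells (0.0203, 0.256, 0.228, 0.189 and 0.0449), so the PT-like value is read as background although it passed the test. Injured tubule-like cells held Lcn2 at 2.24, 1.17, 0.199, 0.7 and 0.0726, highest in the control (log2 difference in AKI −1.59, SE 0.67, adjusted p = 0.41). Neutrophil-like cells, which store the protein in their granules, stood at 6.71, 10.7, 12.9, 5.42 and 13 and held at most 2.67% of the Lcn2 UMIs of a library, against 66.4% to 78.2% for the distal classes.

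Clu had the same distal distribution with a higher control level. DCT/CNT-like cells stood at 15.6, 91.1, 125, 46.2 and 56.1, TAL-like at 1.9, 41.1, 62.3, 11.8 and 54.7, PC-like at 3.29, 39.4, 69.9, 42.2 and 42.5 and IC-like at 4.45, 38.2, 58.8, 14.8 and 33.1. Each of these classes was above the control in every injured library. The CKD libraries overlapped the AKI libraries in TAL-like and PC-like cells, and lay below both of them in DCT/CNT-like and IC-like cells. PT-like cells stood at 0.425, 1.38, 0.407, 0.549 and 0.335, and T lymphocyte-like cells at 0.664, 1.017, 0.848, 0.56 and 0.162. The PT-like level was the higher in AKI 1 and CKD 2 and the lower in the other libraries. In AKI 1, 352 of 643 PT-like Clu UMIs lay in the subcluster led by Kap and Ces2e, at 4.87, against 0.532 there in AKI 2. Proximal Clu above background was thus not seen in both libraries of either AAI group. The distal classes held 65.8% to 74.7% of all Clu UMIs of a library.

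**Figure D3:**
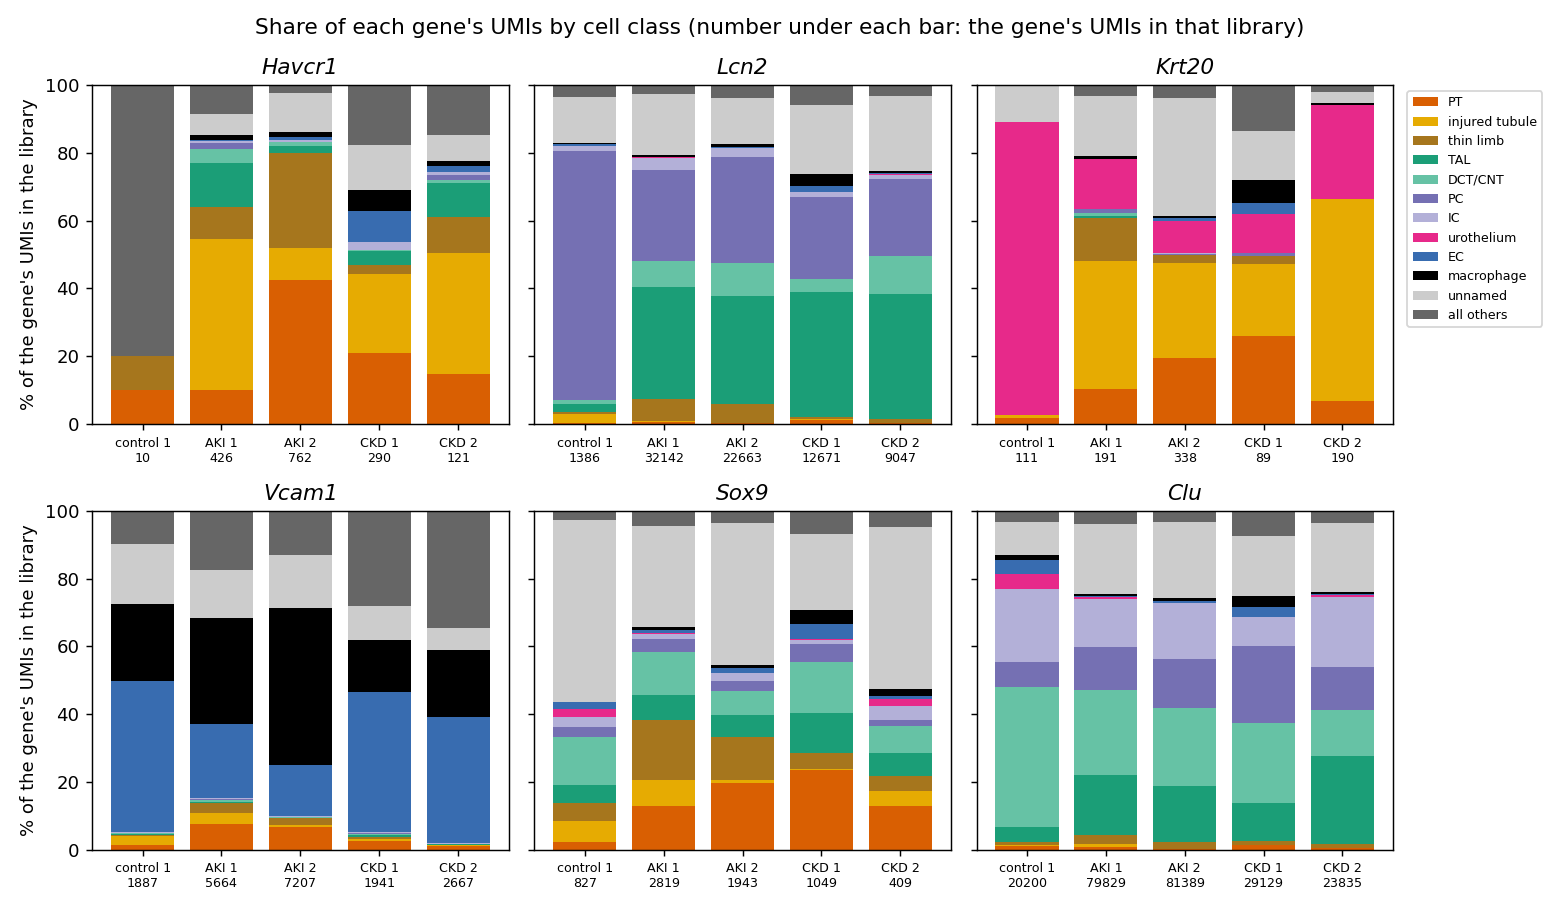
Share of each gene's UMIs in a library that was held by each cell class, in percent, as stacked bars, 1 bar per library. The tubule-like share is 20% to 83.7% for Havcr1 but 1.87% to 15.3% for Vcam1, whose UMIs lie mostly in endothelial, macrophage and unnamed cells.

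Most Vcam1 UMIs lay outside the classes named tubule-like. Endothelial-like cells stood at 1.5, 3.66, 3.71, 2.01 and 4.42, macrophage-like cells at 1.49, 2, 2.53, 0.217 and 0.358 and fibroblast/pericyte-like cells at 1.12, 2.91, 2.07, 0.584 and 2.68, and tubule-like cells held 1.87% to 15.3% of the UMIs. An unnamed epithelial subcluster led by Tagln and Sparc, not counted as tubule-like, held 330, 547, 942, 36 and 130 Vcam1 UMIs. All tubule-like cells together held 97, 868, 710, 104 and 50. The segment of that subcluster could not be named, so the share of all tubule cells may be larger. Among macrophage-like cells the CKD libraries were lowest, under the control and AKI. Within the tubule, PT-like cells stood at 0.0595, 0.927, 0.82, 0.0686 and 0.107 and thin limb-like cells at 0.0182, 0.605, 0.544, 0.0508 and 0. In these 2 classes both AKI libraries were high, with CKD close to the control. Injured tubule-like cells stood at 3.13, 1.97, 1.022, 0.569 and 0.0967, with the control above every AAI library and the AKI difference not past the threshold (log2 −1.023, SE 0.46, adjusted p = 0.45). The distal classes together stood at 0.00617, 0.0706, 0.0591, 0.0443 and 0.0383, below the T lymphocyte-like level (0.0362, 0.228, 0.265, 0.186 and 0.173) in every library, and are read as background. That T lymphocyte-like level was itself higher in the AAI libraries.

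Sox9 was spread over all segments. In AKI 1 and AKI 2 it reached 1.66 and 0.902 in DCT/CNT-like cells (control 0.217), 1.72 and 0.977 in thin limb-like cells (control 0.204), 0.786 and 0.639 in PT-like cells (control 0.0369) and 0.594 and 0.586 in TAL-like cells (control 0.0959). In CKD 1 and CKD 2 it was 1.07 and 0.56 in DCT/CNT-like, 0.249 and 0.255 in thin limb-like, 0.351 and 0.183 in PT-like and 0.451 and 0.247 in TAL-like cells. Both AKI libraries were above the control in each of these classes, and both CKD libraries lay below both AKI libraries in PT-like, thin limb-like and TAL-like cells but overlapped them in DCT/CNT-like cells. The 30 injured tubule-like cells of the control held it at 3.26, above AKI (2.32 and 0.454) and CKD (0.131 and 0.435). That class in the control rested on few cells, 8 of which shared barcodes with deeper CKD 2 cells.

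Each class was then tested on its own sums, with CKD 2 left out of the injured tubule-like class for having 19 cells. In PT-like cells 5 of 6 markers were higher in AKI than in control (11.7% of all genes tested there were higher), with log2 fold changes of 3.83 (SE 0.29, adjusted p = 1.3e-06) for Vcam1 and 4.22 (SE 0.41, adjusted p = 7.9e-06) for Sox9, and Clu at 1.01 (SE 0.48, adjusted p = 0.15). In DCT/CNT-like cells all 5 markers with enough counts were higher (8.89% of genes higher), Vcam1 from a level read above as background, in TAL-like cells 4 of 5 (6.12% higher) and in thin limb-like cells 4 of 6 (2.08% higher), where Havcr1 and Krt20 did not pass. In PC-like cells Lcn2, Sox9 and Clu passed of 3 tested (2.24% higher) and in IC-like cells the same 3 of 4 (1.6% higher). In injured tubule-like cells Havcr1 alone was higher (adjusted p = 0.0076, 0.431% of genes higher). Lcn2 in TAL-like cells rose by 8.95 on the log2 scale (SE 0.55, adjusted p = 0.00027), from 29 control UMIs.

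In CKD against control 4 of 5 markers were higher in TAL-like cells (2.9% of genes higher), with Lcn2 at 8.52 (SE 0.54, adjusted p = 0.00049), and Lcn2, Sox9 and Clu in DCT/CNT-like cells (5.34% higher). In PC-like cells Lcn2 and Clu passed (1.58% higher), in IC-like cells Lcn2 (0.867% higher) and in injured tubule-like cells Havcr1 (0.431% higher). In PT-like cells Sox9 passed at 2.91 (SE 0.42, adjusted p = 0.00042), as did Lcn2, whose level there is read as background, where 7.69% of genes were higher. In macrophage-like cells Vcam1 was lower by 2.38 (log2 −2.38, SE 0.32, adjusted p = 0.0034), against 14% of genes lower. The mix of macrophage-like cells differed between groups: a cluster led by Ctsk, Mmp9 and Acp5 held 56, 71, 88, 565 and 211 cells, and the 7 macrophage markers summed in the class to 113, 141, 142, 44.7 and 47.1, and the part of this mix in the Vcam1 values was not tested. In T lymphocyte-like cells Vcam1 was higher in AKI (2.83, SE 0.21, adjusted p = 0.014, 3.58% of genes higher) and in CKD (2.38, SE 0.21, adjusted p = 0.0079, 13.2% of genes higher).

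Between CKD and AKI the called members were all lower. Vcam1 fell by 3.38 in PT-like cells (SE 0.21, adjusted p = 9.2e-07, 1.31% of genes lower), by 3.12 in macrophage-like cells, where the mix of clusters also changed (SE 0.28, adjusted p = 0.0011, 13.7% lower) and by 3.88 in thin limb-like cells (SE 0.46, adjusted p = 0.031, 0.167% lower). Sox9 fell by 1.31 in PT-like cells (SE 0.23, adjusted p = 0.0059) and by 2.35 in thin limb-like cells (SE 0.31, adjusted p = 0.033), and Clu by 0.96 in DCT/CNT-like cells (SE 0.19, adjusted p = 0.020, 0.558% lower). In endothelial-like cells Vcam1 differed by −0.14 (SE 0.35, adjusted p = 0.94). Whether the endothelial and the tubular course differ was not tested.

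Whether the course of a marker differed between proximal (PT-like and injured tubule-like) and distal cells was tested directly as an interaction. Only the Vcam1 change from control to CKD passed, with a difference of −3.48 on the log2 scale (SE 0.41, adjusted p = 0.033), where 0.0564% of 14191 genes were lower. Proximal sums stood at 0.155, 1.1, 0.832, 0.0844 and 0.106, the control value resting for 49 of 78 UMIs on 30 injured tubule-like cells, and the distal sums are the background-level values given above, so the difference is not read as a change of distal Vcam1. The call was lost without AKI 2 (adjusted p = 0.14) and with PT-like cells alone as the proximal side (−2.32, adjusted p = 0.092). For Lcn2 the difference was −3.88 in AKI (SE 0.99, adjusted p = 0.11) and −3.86 in CKD (SE 1.00, adjusted p = 0.19), and for Clu −2.19 (SE 1.03, adjusted p = 0.34) and −2.58 (adjusted p = 0.35). The proximal control value of Lcn2 rested on 35 UMIs of the 30 injured tubule-like cells and 4 of PT-like cells. The distal bias of their levels was thus not matched by a called difference in fold, which does not show that the folds were alike.

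To compare cells rather than sums, each cell was thinned to 1000 UMIs and those below were left out (285, 181, 84, 0 and 60 tubule-like cells). Havcr1 was then seen in 0 of 2939 control tubule-like cells, which allows a share of up to 0.102%, and in 0.633%, 2.14%, 0.829% and 0.585% of the cells of AKI 1, AKI 2, CKD 1 and CKD 2. T lymphocyte-like cells, which can express it when activated, with median depths of 3305 to 5526 UMIs, showed 0%, 0.156%, 0.0537%, 0.0211% and 0.0364%. Unthinned, the tubule shares were 0.062%, 5.75%, 10.7%, 2.7% and 4.89%. Among injured tubule-like cells the thinned share was 6.67%, 20%, 11.9% and 12.5% in the 4 injured libraries, so most of these cells yielded no Havcr1 UMI at this depth.

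Lcn2 was seen in 2.89%, 27.4%, 25.5%, 22.2% and 13.5% of thinned tubule-like cells, against 0.0888% to 2.85% of T lymphocyte-like cells. Of PC-like cells 18.2%, 84.6%, 85.1%, 65.3% and 72.4% had a UMI, and of TAL-like cells 0.671%, 57.1%, 66.4%, 53.5% and 44.3%. For Clu the shares were 21.6%, 45.7%, 42.2%, 33.3% and 24.4% (2.15% to 10.9% in T lymphocyte-like cells), and for Sox9 0.612%, 6.42%, 3.64%, 2.81% and 1.56% (0.0364% to 0.588%). Vcam1 was seen in 0.306%, 2.26%, 3.32%, 0.865% and 0.39%, and in both CKD libraries this lay below the T lymphocyte-like share of 1.54% and 1.58%, so no tubule Vcam1 above background is read from the CKD shares. All 6 shares were higher in both AKI libraries than in the control, and 4 of 6 were lower in both CKD libraries than in both AKI libraries (6 of 6 without thinning).

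The markers overlapped in cells to different degrees. Of thinned tubule-like cells with Lcn2, 69.6%, 71.0%, 50.4% and 63.8% also had Clu in AKI 1, AKI 2, CKD 1 and CKD 2, where 45.7%, 42.2%, 33.3% and 24.4% of all had it. The control went the other way, with Clu in 6 of 85 such cells (7.06%) against 21.6% of all. Both genes lay mostly in the distal classes, and the part of class mix in these shares was not tested. Of cells with Havcr1, 1 of 7, 3 of 20, 0 of 23 and 0 of 3 also had Vcam1. Of the 15 pairs of markers 5 were seen together in some cell of every AKI and CKD library. Each of these pairs holds Lcn2 or Clu, the markers seen in most cells, and the number expected from their shares was not computed. Of cells with Havcr1, 28.6%, 20%, 21.7% and 33.3% also had Clu, below the share of all cells in every library but CKD 2.

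**Figure D4:**
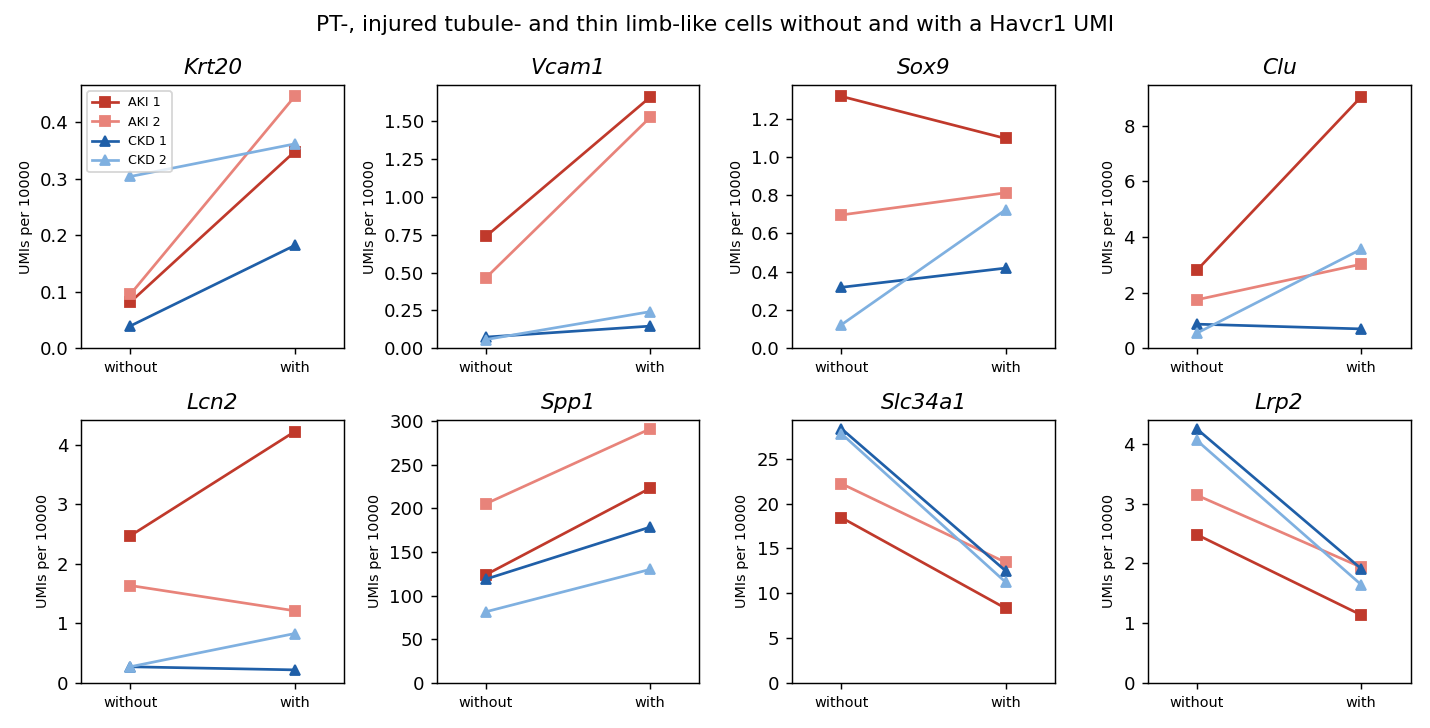
Levels of 8 genes, in UMIs per 10000 UMIs on a linear axis, in PT-like, injured tubule-like and thin limb-like cells with and without a Havcr1 UMI, 1 pair of points per AKI and CKD library. In all 4 libraries the cells with Havcr1 hold more Vcam1, Krt20 and Spp1 and less Slc34a1 and Lrp2. Sox9, Lcn2 and Clu have no order common to all libraries.

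Within PT-like, injured tubule-like and thin limb-like cells, those with a Havcr1 UMI were set beside the rest, as a description, since the 2 sets differed in depth (median UMIs of 34388.5 against 5172 in AKI 1, 25046.5 against 10051 in AKI 2, 5968 against 3324.5 in CKD 1 and 20017.5 against 6519 in CKD 2). There were 46, 88, 59 and 22 cells with Havcr1. The phosphate transporter gene Slc34a1, a mark of differentiated proximal tubule, stood at 8.31, 13.4, 12.5 and 11.2 in cells with Havcr1 and at 18.4, 22.2, 28.3 and 27.8 in those without. Lrp2, the gene of the endocytic receptor megalin, stood at 1.14, 1.94, 1.91 and 1.64 against 2.48, 3.14, 4.25 and 4.06. Both were lower with Havcr1 in all 4 libraries. Vcam1 stood at 1.66, 1.53, 0.146 and 0.241 against 0.739, 0.465, 0.073 and 0.057, Krt20 at 0.348, 0.446, 0.182 and 0.362 against 0.082, 0.096, 0.039 and 0.304, and the osteopontin gene Spp1 at 223, 291, 179 and 130 against 124, 205, 119 and 81.5. These 3 were higher with Havcr1 in every library. Sox9 showed no such order in AKI 1 (1.10 against 1.32) and was higher in the other 3. Lcn2 was lower with Havcr1 in AKI 2 (1.21 against 1.64) and CKD 1 (0.218 against 0.271) and higher in AKI 1 and CKD 2. Clu was lower in CKD 1 (0.691 against 0.862) and higher in AKI 1, AKI 2 and CKD 2. The part of depth and class mix in these differences was not tested.

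Other genes of tubular injury were taken from lists fixed with earlier results of these data known. Of 28 further injury and repair genes tested in tubule-like cells, 20 were higher in AKI than in control, against 9.81% of all genes tested. The median log2 fold change was 1.84, where the median of all genes was −0.01. In CKD 18 were higher and 2 lower (median 1.22), against 9.75% of all genes higher and 985 of 15185 lower. The list includes all naming markers of the injured tubule-like class. Cxcl1, a neutrophil chemokine, stood at 0.0713, 1.92, 1.39, 1.0204 and 0.755 (log2 fold change in AKI 4.49, SE 0.35, adjusted p = 0.0019), and Vim, a mesenchymal intermediate filament, at 0.0425, 0.543, 0.499, 1.71 and 0.872 (3.57, SE 0.49, adjusted p = 0.0066). Leukocytes also express Vim, and the 8 T lymphocyte markers in these tubule-like cells, at 0.142, 0.501, 0.409, 1.44 and 0.662, were highest in the same library. With cells holding immune UMIs left out, 20 list genes were higher in AKI and 16 in CKD. Ccl2, a monocyte chemokine, and Timp1, a metalloproteinase inhibitor with 5 control UMIs, were also named by the rule. Keratin gene Krt19 was the member of these lists called between CKD and AKI: at 0.0485, 0.441, 0.480, 0.129 and 0.175 it fell by 1.56 (SE 0.15, adjusted p = 0.029). With at most 15% mitochondrial UMIs the list count was 7 in AKI and 1 in CKD.

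Over all 15185 genes 9.81% were higher and 1030 genes lower in AKI, and 9.75% were higher in CKD, to be set beside each of the following counts. Of 20 p53 target genes 16 were higher in AKI (median 1.36) and 15 in CKD (median 1.95). Phlda3, an inhibitor of Akt signalling, stood at 0.0434, 0.985, 0.872, 0.868 and 0.903 (log2 fold change in AKI 4.37, SE 0.18, adjusted p = 0.00078), and Cdkn1a, the cell cycle inhibitor p21, at 0.441, 4.30, 3.70, 4.18 and 3.22 (3.13, SE 0.28, adjusted p = 0.0022). For both, the AKI and CKD levels overlapped. Of 15 NF-kB target genes 12 were higher in AKI (median 1.65) and 11 higher and 1 lower in CKD (median 1.29). Among them Icam1, the leukocyte adhesion receptor that acts beside Vcam1, stood at 0.0976, 1.08, 0.852, 0.569 and 0.504, and the complement gene C3 at 0.136, 1.72, 3.97, 0.644 and 0.946. Of 20 proximal tubule function genes 3 were higher and 2 lower in AKI (median 0.22) and 6 higher in CKD (median 0.79), with the inositol oxygenase gene Miox at 4.997, 1.81, 1.81, 4.82 and 3.22. Of 14 genes known to respond to tissue dissociation 2 were higher in AKI, Hspb1 and Hspa1b, with a list median of 0.44. The AKI counts of the last 2 lists are near the share over all genes. At 15% mitochondrial UMIs the count of higher genes was 11 in AKI and 8 in CKD for p53 targets, and 5 in AKI for NF-kB targets.

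Among 8 binding partners of the markers, 3 were higher and 1 lower in AKI. Krt8, the keratin with which Krt20 forms filaments, and Krt18, the usual partner of Krt8 in simple epithelia, stood at 3.47, 12.4, 9.80, 3.83 and 6.58 and at 3.10, 7.99, 6.34, 2.89 and 4.93 (log2 fold changes in AKI of 1.63, SE 0.31, adjusted p = 0.017 and 1.16, SE 0.30, adjusted p = 0.042). Slc22a17, a receptor for Lcn2, stood at 0.414, 0.269, 0.185, 0.198 and 0.217 and was lower (−0.91, SE 0.20, adjusted p = 0.027). Itgb7, an integrin chain of lymphocytes that can pair with the VLA-4 alpha chain, was higher at 0.00444, 0.0280, 0.0297, 0.0733 and 0.0378. Leukocyte transcripts in these cells moved with it, and their part in the result was not tested: all 8 T lymphocyte markers were detected in every library, at the sums given beside Vim, and the 7 macrophage markers summed to 0.211, 0.713, 1.01, 1.05 and 0.303. With tubule-like cells holding immune UMIs left out, all 6 markers remained higher in AKI and in CKD than in the control.

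Genes whose pattern was most like each marker were ranked by the Pearson correlation of log2(CPM + 1) over 76 sums of class and library, among 14392 genes. The sums share libraries and depths, so the values are descriptions. For Havcr1 they were 1700007K13Rik (0.74), 9530053A07Rik (0.73) and D630011A20Rik (0.72), and for Krt20 Nipal4 (0.90) and Anxa8 (0.82). For Lcn2 they were Slc2a1 (0.72) and Clu (0.71), and for Clu Wfdc2 (0.91), Cdo1 (0.89) and Defb1 (0.88). For Sox9 they were Pdk4, Spp1 and Dcdc2a (0.84 each) and for Vcam1 Cmtm3 (0.78), Nes (0.77) and Pdgfb (0.76). Between the markers the correlation was highest for Lcn2 with Clu (0.71), followed by Sox9 with Clu (0.66) and Havcr1 with Krt20 (0.54), and was −0.28 for Vcam1 with Clu.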

How the data were processed

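Single-cell suspensions of whole kidney were sequenced with the 10x Genomics Chromium 3′ assay. The authors deposited 5 matrices of UMI counts per gene and barcode, whole numbers that were not normalised. The submitters' processing notes name Cell Ranger 7.2.0, STAR and GRCm39, the matrix headers of the AKI and CKD libraries name Cell Ranger 5.0.0, and the control's gene list names mm10, with the same 32285 genes in every library. Libraries held 10873 to 22034 barcodes and 90028670 to 121316769 UMIs.

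Cells with at least 200 genes and at most 30% mitochondrial UMIs were kept, and doublets were removed by comparison with simulated doublets (672 in control, 1004 and 942 in AKI, 2984 and 723 in CKD). Cells were clustered with scanpy 1.11.5 on 3000 variable genes and 40 components after correction by library (Leiden, resolution 1.5, 44 clusters), without the 6 markers. The epithelial cells were clustered again into 35 subclusters, a step added after the data were seen. Classes were named from marker genes and need at least 3 detected markers. Counts were summed per class and library with at least 20 cells and tested by quasi-likelihood in edgeR 4.0.16 under R 4.3.3 (TMM scaling, filterByExpr, threshold of 0.05 on adjusted p), with DESeq2 1.42.0 as an alternative. Levels are UMIs per 10000, intervals are exact at 95%, and a count of 0 is bounded by a floor of 3 UMIs. Tested on simulated data for AKI against control, the test recovered 38% of genes changed 2-fold and 96% of those changed 4-fold, with 6 false calls among 14891 genes.

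The text names the 6 markers, at most 4 called genes per list and comparison by largest fold change, and the 3 genes most correlated with each marker, some of which are not reported here. Krt19, Cdkn1a and all others named from the lists follow that rule, and Slc34a1, Lrp2 and Spp1 are class markers or list members. The members, lists and tests were chosen with earlier results of these data known. Alternatives varied the filter, mitochondrial limit, doublets, library correction, resolution, fit, immune UMIs, shared barcodes and single libraries. Sequences were matched by symbol to RefSeq tables, which held promoters for Havcr1, Lcn2 and Krt20.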

Additional observations from a re-analysis of the deposited data

Results flagged for a closer look

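The change of Vcam1 from control to CKD differed between proximal and distal tubule-like cells by −3.48 on the log2 scale in the test of the difference itself. The distal levels are at background, 49 of the 78 proximal control UMIs came from 30 injured tubule-like cells, and with PT-like cells alone, which went from 0.0595 to 0.0686 and 0.107, the difference was not called (−2.32, adjusted p = 0.092). Vcam1 stood at a mean of 1.495 UMIs per 10000 in the injured tubule-like cells of the 2 AKI libraries, below the 3.13 of the control, while every AKI library was above the control over all tubule-like cells, and this difference in direction was not tested. Sox9 did the same, with an AKI mean of 1.39 in injured tubule-like cells against 3.26 in the control. In macrophage-like cells Vcam1 had a CKD mean of 0.288 against 1.49 in the control, while tubule-like cells of both CKD libraries were above the control, which was likewise not tested. Clu had an AKI mean of 1.00 in endothelial-like cells against 1.51 in the control, opposite to its rise in tubule-like cells, also not tested.

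An epithelial subcluster of 267 cells, led by Tagln and Sparc and with Vcam1 among its leading genes, could not be named and entered no main comparison. It carried several markers above its control level. Its Vcam1 level was 1.85 in the control and 4.17 in the lower AKI library, with 0.903 in CKD 1, below the control, and 2.71 in CKD 2, while the control and the lower AKI library stood at 2.38 and 4.16 for Sox9 and at 4.43 and 7.74 for Clu. Lcn2 was 0.117 in the control, 0.310 in the lower AKI library and 0.562 in the lower CKD library, and Clu was 5.79 in the lower CKD library.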

How the results depend on the processing

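In AKI against control the count of 6 markers higher in tubule-like cells stayed at 4 to 6 under every alternative run, with Krt20 lost at 15% mitochondrial UMIs, without correction by library, with the unnamed subclusters of epithelial clusters included and without clusters held mostly by 1 library, and Vcam1 lost at 15% mitochondrial UMIs (1.85, adjusted p = 0.14). In CKD against control the count of 6 fell to 0 at 15% mitochondrial UMIs, to 2 with unnamed epithelial subclusters included and to 3 without clusters held mostly by 1 library, the last 2 alternatives being chosen after seeing the data, and leaving out 1 library gave 5 to 6. In CKD against AKI the count of 1 became 5 with DESeq2 and 5 with no filter on low counts, 3 with tubule-like cells holding immune UMIs left out, and 0 at 15% mitochondrial UMIs, with no correction by library and with unnamed epithelial subclusters included, where 4, 5 and 5 markers had an unadjusted p under 0.05 by edgeR and DESeq2 was not run. Leaving out 1 library gave 1 to 3 (2 without AKI 1, 2 without AKI 2, 3 without CKD 2). Same-numbered AKI and CKD libraries did not deviate together (r = −0.08 over 14373 genes), and the replicate block gave 1 marker and 12 genes called. The 47 calls (injury markers in each cell class, all 3 contrasts) became 93 with no filter and 38 to 107 without 1 library (95 without CKD 1, 107 without CKD 2). The 1 difference between proximal and distal cells became 2 with PT-like cells alone, 6 with no filter and 0 to 7 without 1 library (4 without AKI 1, 0 without AKI 2, 5 without CKD 1, 7 without CKD 2), and without AKI 2 8 of 18 had an unadjusted p under 0.05 by edgeR. Reversed in sign were Vcam1 in tubule-like cells in CKD against control at 15% mitochondrial UMIs (−0.38), Clu in dendritic-like cells in CKD against AKI without CKD 2 (0.69, against −1.79 without CKD 1), Clu in endothelial-like cells without CKD 2 in CKD against control (0.55, −2.25 without CKD 1) and without CKD 1 in CKD against AKI (−1.73, 1.08 without CKD 2), Lcn2 in macrophage-like cells in CKD against AKI without CKD 2 (0.71, −2.28 without CKD 1), and the proximal minus distal difference of Sox9 in AKI with PT-like cells alone (1.61, adjusted p = 0.039). Of all genes 2520 were called in AKI against control, 258 at 15% mitochondrial UMIs and 831 with unnamed subclusters included, 2466 in CKD against control and 57 at 15%, and 14 in CKD against AKI, 307 with DESeq2, 1388 with no filter and 566 without CKD 2. Levels by class also moved with doublets kept. The mean Sox9 level of the injured tubule-like class was then 4.49 in place of 1.54. For Vcam1 the class with the highest mean became injured tubule-like (3.78) in place of endothelial-like (3.06). The causes were not tested. Depth limited the folds of Havcr1 and Krt20, whose control levels rest on 2 and 3 UMIs.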

Other observations

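In the same unnamed subcluster, whose cells numbered 72, 45, 52, 85 and 13 in control, AKI 1, AKI 2, CKD 1 and CKD 2, Havcr1 stood at 0, 0.0229, 0.431, 0.0753 and 0 UMIs per 10000 and Krt20 at 0.0671, 0.152, 0.662, 0.0753 and 0.0625. Sox9 in its control cells, at 2.38, was above the control level of every tubule-like class other than the injured tubule-like class. Cells of no named class held 53.7% of all Sox9 UMIs of the control library and 29.9% and 41.7% of those of AKI 1 and AKI 2.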
